A study of Mus musculus with 8 samples.

Results

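Conventional dendritic cell markers are a set of 10 genes: Clec9a, Xcr1, Naaa, Tlr3, Tlr11 and Wdfy4, known for the type 1 subset (cDC1), Cd209a, known for the type 2 subset (cDC2), and Itgax, Zbtb46 and Cst3, which both subsets share. They were taken by symbol from a table of 23293 mouse genes, where all 10 were found, and all 10 were among the 10854 genes tested, those with a mean of at least 1 FPKM (fragment counts scaled to transcript length and sequencing depth) over all libraries. RNA was measured in cells of mouse bone marrow selected on magnetic beads for c-Kit (Cd117), a receptor of stem and progenitor cells, in 8 libraries from individual mice, 2 in each of 4 groups. The combined group carried Mx1-cre, a floxed Smc3 allele and Flt3-ITD, with a genotype field of Smc3 fl/del Flt3-ITD and a title that has het for Smc3. The Flt3-ITD group carried Mx1-cre and Flt3-ITD, and the Smc3 del/+ group carried Mx1-cre and 1 floxed Smc3 allele. Controls were Smc3 fl/+ without Mx1-cre, and the presence of the recombinase therefore differs too wherever a group is set against them. All 4 groups were taken 4 weeks after PIpC, which induces Mx1-cre through the interferon-responsive Mx1 promoter, active in many tissues besides blood. Age, sex and strain are not given in the labels.

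Conventional dendritic cells take up antigen and present it to T cells. They arise in the marrow from progenitors that depend on the receptor kinase Flt3, and the ITD allele, an internal tandem duplication, leaves this receptor active without its ligand. Smc3 forms part of the cohesin ring, which folds chromosomes into loops and keeps sister chromatids paired until division. cDC1 cells are specialised in presenting antigen from dead cells to CD8+ T cells and need the transcription factors Irf8 and Batf3, while cDC2 cells mostly present to CD4+ T cells.

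The members were chosen with earlier results of these libraries known, and which comparison guided the choice is not recorded, so levels and calls below describe these 8 libraries and are not independent evidence. In bulk cells, more cells of a type and more RNA per cell cannot be told apart. Xist, the RNA of the inactive X chromosome in females, was at 596 and 500 FPKM in the combined group and 657 and 617 in controls, but at no more than 0.936 in the other 4 libraries. Comparisons of Flt3-ITD or Smc3 del/+ with control, and of combined with Flt3-ITD, are therefore also comparisons between Xist-high and Xist-low mice, and the interaction follows Xist in full. Combined and control libraries are both Xist-high. Smc3 was at 103 and 136 FPKM in combined, 94.7 and 89.9 in Flt3-ITD, 135 and 133 in Smc3 del/+ and 119 and 112 in control libraries, so the means of groups labelled with the deletion were not below those of the groups set against them, while combined replicate 1 was below both controls. The sources used here do not name the deleted exons, a level over the whole gene may not show the deletion, and groups are named as labelled. Kit was lower in the combined group, at 40.1 and 37.4 FPKM against 60.1 and 54.9 in controls (log2 fold change -0.56, limma adjusted p = 0.0391). The combined replicates differed most: the SD over genes of the difference between replicates was 0.701 on the log2 scale in combined and from 0.35 to 0.409 in the other groups. Genes listed at 0 numbered 11076 in combined replicate 2 and from 8878 to 9907 in the other 7 libraries.

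The start regions of 3 members are shown because they hold a composite of the motifs bound by IRF and ETS factors, the families of Irf8 and PU.1, and because these genes differed widely between groups. Each stretch is 160 bases of RefSeq's GRCm38.p6 sequence, 5′ to 3′ on the gene's strand, from 150 bases before the annotated start to 10 bases after it. The build differs from the mm9 build of the expression data. Capitals mark motif matches.
Clec9a, chr6:129408712-129408871, plus strand: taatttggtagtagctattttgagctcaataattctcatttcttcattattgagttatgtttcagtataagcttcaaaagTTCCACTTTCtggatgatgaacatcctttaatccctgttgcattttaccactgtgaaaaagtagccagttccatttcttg
Tlr11, chr14:50357764-50357923, plus strand: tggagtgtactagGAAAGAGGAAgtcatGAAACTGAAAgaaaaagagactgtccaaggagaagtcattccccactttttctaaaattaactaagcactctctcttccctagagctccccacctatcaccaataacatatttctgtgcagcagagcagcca
Cd209a, chr8:3748975-3749134, minus strand: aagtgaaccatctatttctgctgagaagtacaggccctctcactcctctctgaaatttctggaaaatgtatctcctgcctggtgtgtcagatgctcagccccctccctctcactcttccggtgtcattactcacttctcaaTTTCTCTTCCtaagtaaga

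Windows of 300 bases (250 before each start and 50 after) were searched on both strands for all 10 members and for 32851 annotated starts. The half-sites GAAA and GGAA with 2 bases between them, in this order, were found in Clec9a, on the minus strand from position -70, and in Tlr11 from position -137, and 2.80% of all windows held it. The reverse order, GGAA before GAAA with the same gap, was found in Cd209a alone among the members, on the minus strand from position -9, and 2.72% of all windows held it. A pair of GAAA half-sites with the same gap, the interferon response element, was found in Tlr11, from position -122 (3.44% of all windows), and the PU.1 core GAGGAA in Tlr11 and Cst3 (28.3%). In Tlr11 a PU.1 core lies inside the GAAA and GGAA match. The AP-1 motif TGANTCA was found in Itgax and Zbtb46 (7.81%). These matches describe letters in the windows, and binding was not measured.

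All cDC1 members had their highest mean in the combined group, though for Wdfy4 the combined and Flt3-ITD libraries overlapped. Clec9a, a receptor for actin exposed by dead cells, was at 18.2 and 11.4 FPKM in combined, 4.65 and 1.97 in Flt3-ITD, 1.10 and 1.36 in Smc3 del/+ and 1.51 and 1.77 in control libraries. Both combined libraries lay above all 6 others, and Flt3-ITD replicate 2 was close to the controls. Clec9a rose in combined against control by a log2 fold change of 2.55 ± 0.347 (SE, limma adjusted p = 0.00726), all fold changes here being on the log2(FPKM + 1) scale, which understates those of low genes.

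Tlr3, the endosomal sensor of double-stranded RNA, was at 11.9 and 9.32 FPKM in combined, 4.17 and 1.35 in Flt3-ITD, 0.504 and 0.426 in Smc3 del/+ and 0.588 and 0.810 in control libraries. Tlr11, which in mice senses profilin of protozoan parasites, was at 5.58 and 7.26 FPKM in combined, 2.36 and 0.751 in Flt3-ITD, 0.0178 and 0.132 in Smc3 del/+ and 0.375 and 0.0314 in controls. For both Toll-like receptors all 4 Flt3-ITD carriers lay above all 4 other libraries. The log2 fold change in combined against control was 2.77 ± 0.370 for Tlr3 and 2.63 ± 0.363 for Tlr11 (limma adjusted p = 0.00685 and 0.00733). Tlr11 was the single member in which combined replicate 2 was above replicate 1.

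Naaa, the lysosomal N-acylethanolamine amidase, had the closest combined replicates of all members, at 35.9 and 30.6 FPKM in combined, 14.2 and 9.26 in Flt3-ITD, 3.62 and 4.68 in Smc3 del/+ and 5.41 and 3.67 in control libraries. Its groups formed a staircase, with combined above Flt3-ITD and Flt3-ITD above the overlapping Smc3 del/+ and control libraries. It rose in combined (log2 fold change 2.64 ± 0.255, limma adjusted p = 0.00310) and in Flt3-ITD (1.19 ± 0.255, limma adjusted p = 0.0201), each against control.

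Xcr1, the receptor by which cDC1 cells respond to the chemokine Xcl1, was among the lowest members. It was at 5.49 and 1.91 FPKM in combined, 1.44 and 0.675 in Flt3-ITD, 0.138 and 0.114 in Smc3 del/+ and 0.148 and 0.842 in control libraries. The combined libraries lay above the rest, while Flt3-ITD replicate 2 lay between the controls. Its log2 fold change in combined against control of 1.58 ± 0.443 did not pass (limma adjusted p = 0.0608).

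Wdfy4, needed by cDC1 cells for cross-presentation and also expressed by B cells, was at 36.8 and 17.1 FPKM in combined, 20.2 and 19.3 in Flt3-ITD, 12.5 and 12.6 in Smc3 del/+ and 13.8 and 14.1 in control libraries. Here combined replicate 2 lay below both Flt3-ITD libraries, so that combined and Flt3-ITD overlapped. The log2 fold change in combined against control was 0.81 ± 0.302 (limma adjusted p = 0.127). It was 1.34 without combined replicate 2 (limma adjusted p = 0.000986).

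Cd209a, a C-type lectin of the DC-SIGN family found on cDC2 cells and on dendritic cells that come from monocytes, had the widest range of all members. It was at 20.4 and 5.56 FPKM in combined, 0.217 and 0.710 in Flt3-ITD, 0.0423 and 0.385 in Smc3 del/+ and 0.607 and 0 in control libraries. The other 3 groups overlapped below 1 FPKM, and the combined replicates differed 3.66-fold. Cd209a rose in combined against control (log2 fold change 3.22 ± 0.549, limma adjusted p = 0.0131). Because 1 control is listed at 0, no ratio of FPKM to controls is given.

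The shared markers did not move as a block. Itgax, the integrin chain CD11c, was at 10.3 and 4.03 FPKM in combined, 1.09 and 1.12 in Flt3-ITD, 0.949 and 0.621 in Smc3 del/+ and 1.19 and 1.36 in control libraries. Both Flt3-ITD libraries were just below both controls. Itgax rose in combined against control (log2 fold change 1.73 ± 0.375, limma adjusted p = 0.0277), while its value in Flt3-ITD against control was -0.11 ± 0.375 (limma adjusted p = 0.871). The call against control was lost without any 1 of the Flt3-ITD, Smc3 del/+ or control libraries (adjusted p from 0.0566 to 0.168).

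Cst3, the cysteine protease inhibitor cystatin C, which many cells make, was the most abundant member per length, at 256 and 156 FPKM in combined, 129 and 120 in Flt3-ITD, 64.1 and 76.0 in Smc3 del/+ and 72.2 and 79.1 in control libraries. It rose in combined against control (log2 fold change 1.39 ± 0.226, limma adjusted p = 0.0112). In Flt3-ITD against control its value was 0.71 ± 0.226 (limma adjusted p = 0.0678), with no overlap between the libraries. Replicates of combined were further apart than those of the other groups.

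Zbtb46, a transcription factor of conventional dendritic cells that erythroid progenitors also express in mice, ran against the rest. It was at 1.88 and 0.635 FPKM in combined, 0.763 and 0.188 in Flt3-ITD, 2.62 and 3.01 in Smc3 del/+ and 3.65 and 2.65 in control libraries. All 4 Flt3-ITD carriers lay below all 4 other libraries, as in 15.1% of all tested genes, and it fell in Flt3-ITD against control (log2 fold change -1.51 ± 0.349, limma adjusted p = 0.0261), a call lost without any 1 of the control, Smc3 del/+ or Flt3-ITD libraries (adjusted p from 0.06 to 0.174). The summed FPKM of 10 erythroid markers was 153 and 510 in combined, 135 and 37.8 in Flt3-ITD, 1433 and 1549 in Smc3 del/+ and 1635 and 1551 in control libraries. Of the 9 that were tested, 8 fell in Flt3-ITD against control. The part of erythroid cells in the Zbtb46 values was not tested.

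**Figure D1:**
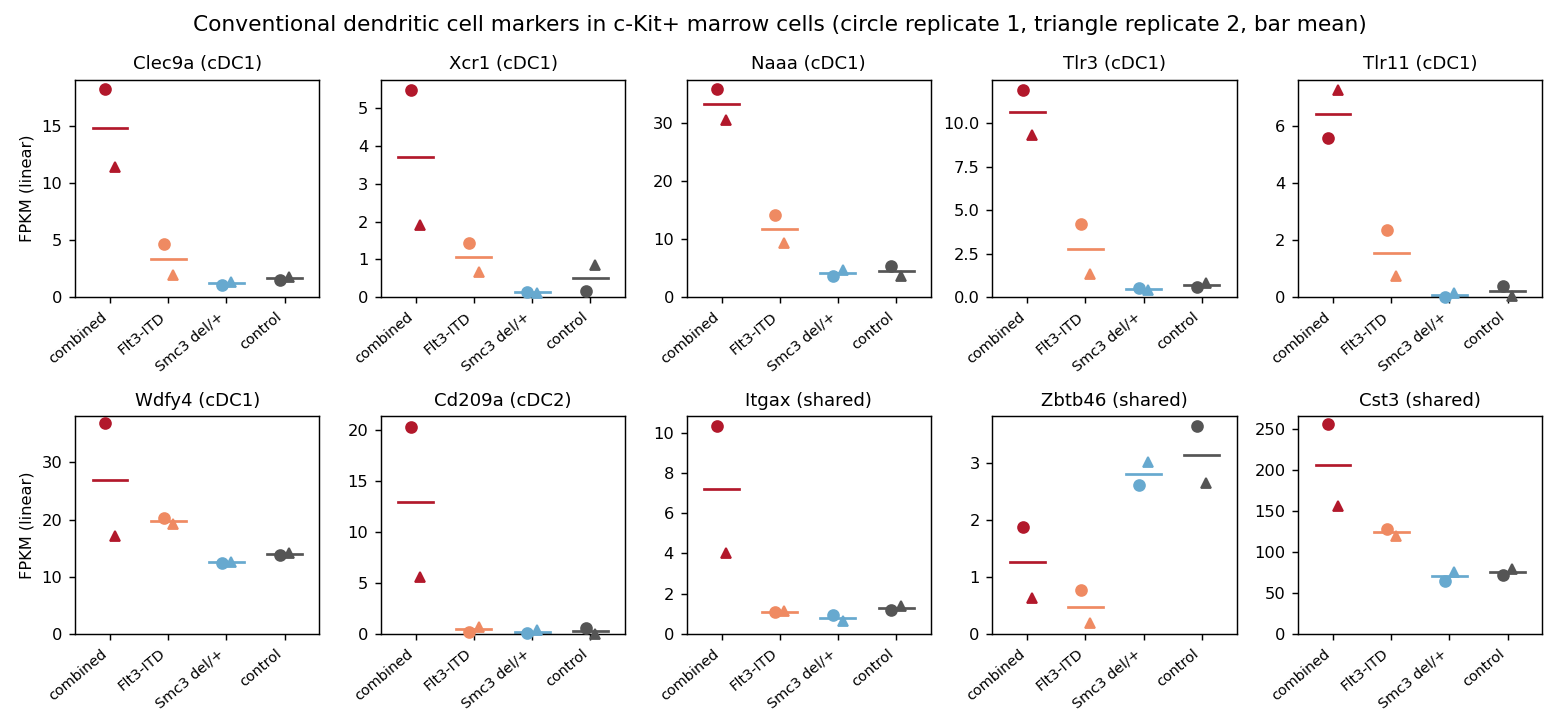
FPKM (linear axis, a separate scale per gene) of the 10 members in the combined, Flt3-ITD, Smc3 del/+ and control groups; circles are replicate 1, triangles replicate 2 and bars the mean of both. In 8 genes both combined libraries lie above all 6 others, Wdfy4 overlaps with Flt3-ITD, and Zbtb46 is lower in the 4 libraries with Flt3-ITD.

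Against controls, which asks what both alleles do together, the combined group had 7 of 10 members higher and none lower: Clec9a, Naaa, Tlr3, Tlr11, Cd209a, Itgax and Cst3. Over all tested genes 5.41% were called higher and 6.38% lower in this comparison. All 10 members had an unadjusted p under 0.05, as had 28.6% of all genes, and 8 had a log2 fold change above 1, as had 3.18%. The median log2 fold change of the members was 2.14, against -0.0055 over all tested genes. Both combined libraries lay above all 6 others in 8 members, the same 7 and Xcr1, as they did in 5.43% of all tested genes, and below all 6 in no member (5.07%). In the table the authors normalized these were 7 members (Cst3 overlapped) and 1.43% of genes. The number called was 1, Naaa, without control replicate 1 and likewise without control replicate 2, and 2 with only these groups in the fit. It was 8 (7 higher and Zbtb46 lower) without combined replicate 1 and 9, all higher, without combined replicate 2. All genes called were 0.792% and 0.765% without control replicates 1 and 2, and 28.7% and 31.6% without combined replicates 1 and 2.

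Between combined and Flt3-ITD, which asks what the Smc3 deletion adds to Flt3-ITD, all 10 members had positive values with a median of 1.53 (0.00077 over all tested genes). No member passed by limma, where 0.286% of all genes were called (0.24% higher and 0.0461% lower), while 8 had an unadjusted p under 0.05, as had 11.0% of all genes, and 7 had a log2 fold change above 1, as had 2.19%. Log2 fold changes were 3.04 ± 0.549 for Cd209a, 1.92 ± 0.347 for Clec9a, 1.84 ± 0.375 for Itgax, 1.73 ± 0.370 for Tlr3, 1.60 ± 0.363 for Tlr11 and 1.45 ± 0.255 for Naaa, with limma adjusted p from 0.0945 to 0.189. Without combined replicate 1 the number called was 6, all higher, in a fit that called 29.9% of all genes, and without combined replicate 2 it was 5, all higher, where 1.02% were called. In these fits the lone combined library is taken to vary like the other groups.

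Flt3-ITD against control, which shares its controls with the first comparison, asks what the mutation does without a labelled Smc3 deletion. It had 1 member higher, Naaa, and 1 lower, Zbtb46, where 8.51% of all genes were called higher, 9.5% lower and 18.0% in either direction. An unadjusted p under 0.05 was found for 5 members and 33.9% of all genes. Log2 fold changes that did not pass were 1.04 ± 0.370 for Tlr3, 1.03 ± 0.363 for Tlr11 and 0.63 ± 0.347 for Clec9a (limma adjusted p = 0.0918, 0.0903 and 0.247). Both Flt3-ITD libraries were above both controls in 6 members, as in 34.3% of all genes. Flt3-ITD replicate 1 was above replicate 2 in 8 of 10 members, by 3.09-fold for Tlr3, 3.14-fold for Tlr11 and 2.37-fold for Clec9a, as it was in 54.4% of all tested genes. Both calls were lost without either control library or without Flt3-ITD replicate 1, in fits that also called fewer of all genes. With any 1 library left out, the log2 fold change was 0.91 to 1.47 for Naaa and -1.79 to -1.22 for Zbtb46. With only Flt3-ITD and control libraries in the fit, 4 members were called, beside 33.2% of all genes. In the table the authors normalized 1 member was called, Zbtb46, beside 44.2% of all genes in either direction and 43.2% lower.

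Smc3 del/+ against control asks what the deletion does without Flt3-ITD. All 10 members had lower means in Smc3 del/+, as had 49.8% of all tested genes. The log2 fold changes ran from -0.37 ± 0.443 for Xcr1 to -0.08 ± 0.549 for Cd209a, with a median of -0.15 (0.0012 over all genes). None passed by limma, where 0.00921% of all genes were called, and none had an unadjusted p under 0.05, as 4.55% of all genes had. That share called is 1 gene, Xist, which was lower in Smc3 del/+ (log2 fold change -8.58). In 5 members, Clec9a, Xcr1, Tlr3, Wdfy4 and Itgax, both Smc3 del/+ libraries lay below both controls, as in 23.2% of all genes. The errors leave room for changes of either sign.

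**Figure D2:**
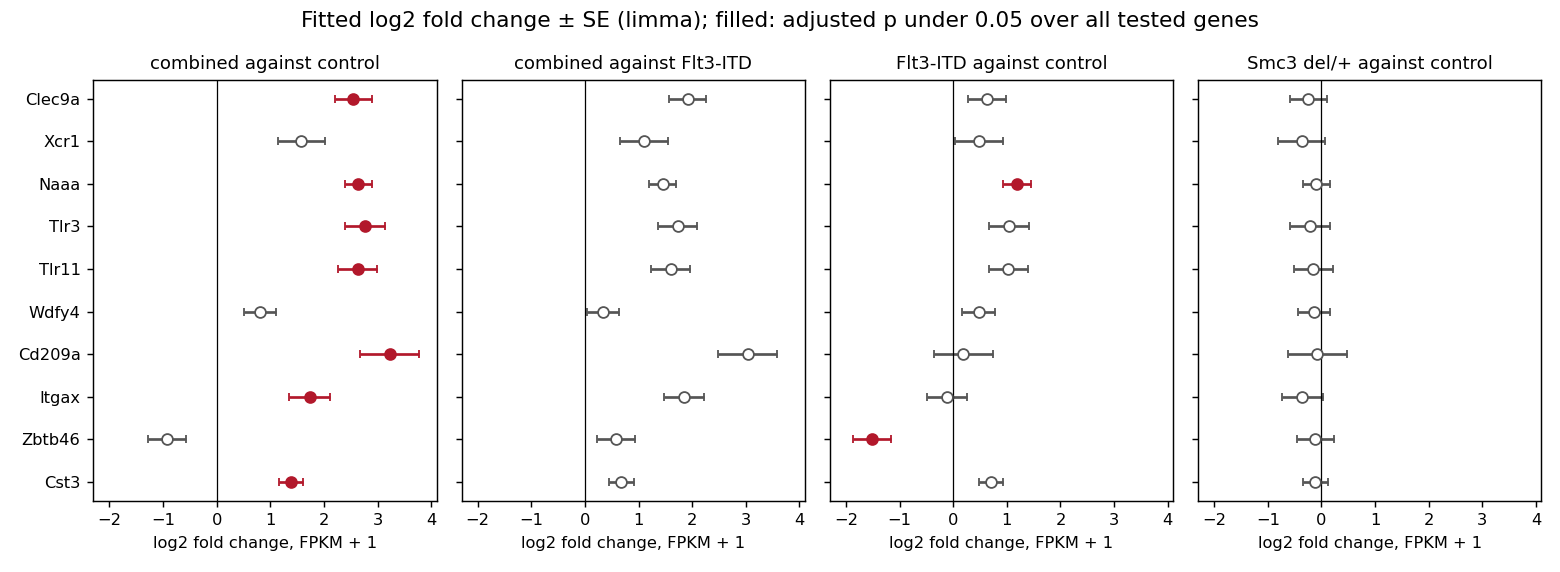
Log2 fold changes of FPKM + 1 with standard errors from limma for the 10 members (rows) in 4 comparisons (panels); filled points have an adjusted p under 0.05 over all 10854 tested genes. The 7 filled points of combined against control lie between 1.39 and 3.22, no point is filled in combined against Flt3-ITD or Smc3 del/+ against control, and Zbtb46 lies below 0 in each comparison with control.

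The interaction asks whether the value of the Smc3 deletion differs between Flt3-ITD carriers and the other mice. It was positive for all 10 members, with a median of 1.65 (-0.0073 over all genes). The highest were 3.11 ± 0.776 for Cd209a, 2.20 ± 0.531 for Itgax and 2.16 ± 0.491 for Clec9a. None passed by limma (adjusted p from 0.258 to 0.756, with 0.0369% of all genes called, 0.0184% positive and 0.0184% negative), while 8 members and 9.3% of all genes had an unadjusted p under 0.05. The number called was 5 without combined replicate 1 and 4 without combined replicate 2, all positive, in fits that called 18.8% and 0.903% of all genes. Since the interaction shares all its libraries with the comparisons above and follows Xist, it adds no separate evidence.

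Averaged over both Smc3 states, Flt3-ITD carriers had 6 members higher (Clec9a, Naaa, Tlr3, Tlr11, Wdfy4 and Cst3) and Zbtb46 lower, where 10.9% of all genes were called higher, 12.8% lower and 23.8% in either direction. An unadjusted p under 0.05 was found for 9 members and 38.0% of all genes. This average is balanced for Xist. Log2 fold changes were 2.01 ± 0.415 for Tlr3, 1.96 ± 0.314 for Naaa and 1.90 ± 0.390 for Tlr11 (limma adjusted p = 0.0113, 0.00446 and 0.0110). Cd209a and Itgax, at 1.74 ± 0.647 and 0.99 ± 0.453, did not pass (limma adjusted p = 0.0834 and 0.147). In these same 6 genes all 4 carriers lay above all 4 other libraries, as in 12.1% of all tested genes. The number called was between 5 and 8 when any 1 library was left out, in fits that called from 11.1% to 43.3% of all genes. Among these fits Wdfy4 was called only without either combined library, and Zbtb46 was not called without either control. Clec9a was not called without either Smc3 del/+ library, Flt3-ITD replicate 1 or combined replicate 1 (limma adjusted p from 0.0524 to 0.0761).

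The order of group means was combined, Flt3-ITD, control, Smc3 del/+ from high to low in 8 members, as in 5.06% of all tested genes. Itgax had controls above Flt3-ITD, and Zbtb46 ran from control through Smc3 del/+ and combined to Flt3-ITD. In these 8 the last step, from control to Smc3 del/+, was within the overlap of libraries for Naaa, Tlr11, Cd209a and Cst3. Libraries also overlapped between Flt3-ITD and control for Xcr1 and Cd209a, and between combined and Flt3-ITD for Wdfy4. The 6 cDC1 genes summed to 114 and 77.7 FPKM in combined, 47.1 and 33.3 in Flt3-ITD, 17.8 and 19.3 in Smc3 del/+ and 21.9 and 21.2 in control libraries. Combined replicate 1 exceeded replicate 2 in 9 of 10 members, as in 51.9% of all tested genes.

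Among other dendritic cell genes, 4 of the 7 that act in MHC class II presentation passed between combined and Flt3-ITD, though not under every setting. In a list of 18 receptors, presentation genes and factors shared by dendritic cells, 16 were tested. In combined against control 9 rose and none fell (median log2 fold change 1.47). In combined against Flt3-ITD 4 rose and none fell, with a median of 1.23. Beside this list and those below, 5.41% of all tested genes were called higher and 6.38% lower in combined against control. These shares were 8.51% and 9.5% in Flt3-ITD against control and 0.24% and 0.0461% in combined against Flt3-ITD. H2-Eb1, an MHC class II chain, was at 103 and 83.2 FPKM in combined, 15.7 and 4.84 in Flt3-ITD, 4.31 and 3.75 in Smc3 del/+ and 4.88 and 4.45 in control libraries. Its combined libraries lay far above the rest, and it rose against Flt3-ITD (log2 fold change 3.25 ± 0.423, limma adjusted p = 0.0352). H2-Aa, Cd74 (the invariant chain) and Ciita (the class II transactivator), which B cells and other antigen-presenting cells use too, also rose there, by 3.22, 3.13 and 2.21 on the log2 scale. The other 3 class II genes, H2-Ab1, H2-DMb1 and H2-DMa, at 2.79, 1.36 and 0.36, did not pass (limma adjusted p = 0.0709, 0.373 and 0.746), nor did Kmo and Btla. None of these 4 calls held with the replicate number as a block, with a pseudocount of 0.1, without the filter, with only these groups in the fit, or without any 1 of the control or Smc3 del/+ libraries. With the block the adjusted p was 0.0539 for H2-Eb1, H2-Aa and Cd74 and 0.0895 for Ciita. Of these settings only the pseudocount can alter the log2 fold changes between these 2 groups, so equal values in the other fits are no check. With the pseudocount of 0.1 they were 3.39 for H2-Eb1, 3.29 for H2-Aa, 3.15 for Cd74 and 3.04 for Ciita. Of the list, 3 and 1 genes were called higher without Flt3-ITD replicates 1 and 2, 7 higher and 3 lower without combined replicate 1, and 8 higher without combined replicate 2, counts added after seeing the data. Against control, the 9 that rose were 3 without either control library.

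In Flt3-ITD against control, 2 of these 16 rose, Csf2ra (a chain of the GM-CSF receptor) by 1.17 and Sfpi1, the gene of PU.1, by 0.89 on the log2 scale. Their limma adjusted p was 0.00682 and 0.0485. The number called higher was 1 with a pseudocount of 0.1, without the filter or with the block, and 3 with only these groups in the fit. In the table the authors normalized 1 was higher and 1 lower. H2-Aa and Csf2rb, with log2 fold changes of 0.87 and 0.91, did not pass (limma adjusted p = 0.140 and 0.0755). Flt3 itself was at 14.3 and 7.92 FPKM in combined, 3.64 and 5.36 in Flt3-ITD, 4.95 and 4.74 in Smc3 del/+ and 5.81 and 5.21 in control libraries. Both combined libraries lay above the other 6, with a log2 fold change against control of 0.85 ± 0.285 (limma adjusted p = 0.0984).

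Of 18 other cDC1 genes, 12 were tested. In combined against control 7 rose (Irf8, Id2, Itgae, Gcsam, Ppt1, Gpr141 and Tap1) and Fgd6 fell, with a median of 1.02. In Flt3-ITD against control 6 rose (Irf8, Id2, Nfil3, Bcl6, Ly75 and Gpr141) and Fgd6 fell, with a median of 0.99. In combined against Flt3-ITD none passed, 8 of 12 were positive and the median was 0.27. Nfil3, Bcl6, Ly75 and Cd24a were negative there, at -0.41, -0.36, -0.80 and -0.26. Irf8, the transcription factor on which cDC1 cells depend, was at 126 and 76.5 FPKM in combined, 58.7 and 89.2 in Flt3-ITD, 26.6 and 28.4 in Smc3 del/+ and 26.4 and 29.5 in control libraries. Combined and Flt3-ITD overlapped for Irf8 (log2 fold change 0.44 ± 0.267, limma adjusted p = 0.543), and both lay above the other 4 libraries. Id2, a repressor of helix-loop-helix factors needed by cDC1 cells, had a log2 fold change of 0.014 in combined against Flt3-ITD. Itgae (CD103) was at 6.69 and 3.87 FPKM in combined, 1.42 and 1.18 in Flt3-ITD, 0.207 and 0.183 in Smc3 del/+ and 0.249 and 0.235 in control libraries. Batf3, the other defining factor, was listed at 0 in 6 libraries, with 1.35 FPKM in combined replicate 1 and 1.48 in Flt3-ITD replicate 1. Cd8a did not exceed 0.295 FPKM in any library.

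Other cDC2 genes were less uniform. Of 12 tested among 18, Clec10a, Clec4a2 and Cd300a rose in combined against control, none fell, and the median was 0.40. In Flt3-ITD against control, Sirpa, Clec4a2 and Cd300a rose (limma adjusted p = 0.0174, 0.00269 and 0.0394). Irf4, Mgl2 and Clec4a1 fell there, each close to the threshold (limma adjusted p = 0.0465, 0.0405 and 0.0426). None of the list passed in combined against Flt3-ITD, with a median of 0.20. Clec10a, a lectin of cDC2 cells, was at 10.2 and 4.51 FPKM in combined, 2.49 and 3.42 in Flt3-ITD, 1.84 and 1.46 in Smc3 del/+ and 1.59 and 0.700 in control libraries. Irf4, a cDC2 factor that other blood cells use too, was at 2.55 and 0.637 FPKM in combined, 0.134 and 0.239 in Flt3-ITD, 1.18 and 0.921 in Smc3 del/+ and 2.73 and 1.66 in controls. Esam and Cd4, markers of a cDC2 subset, had no value above 1.18 and 1.75 FPKM. The Clec4a genes are close paralogs, which makes their values uncertain.

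**Figure D3:**
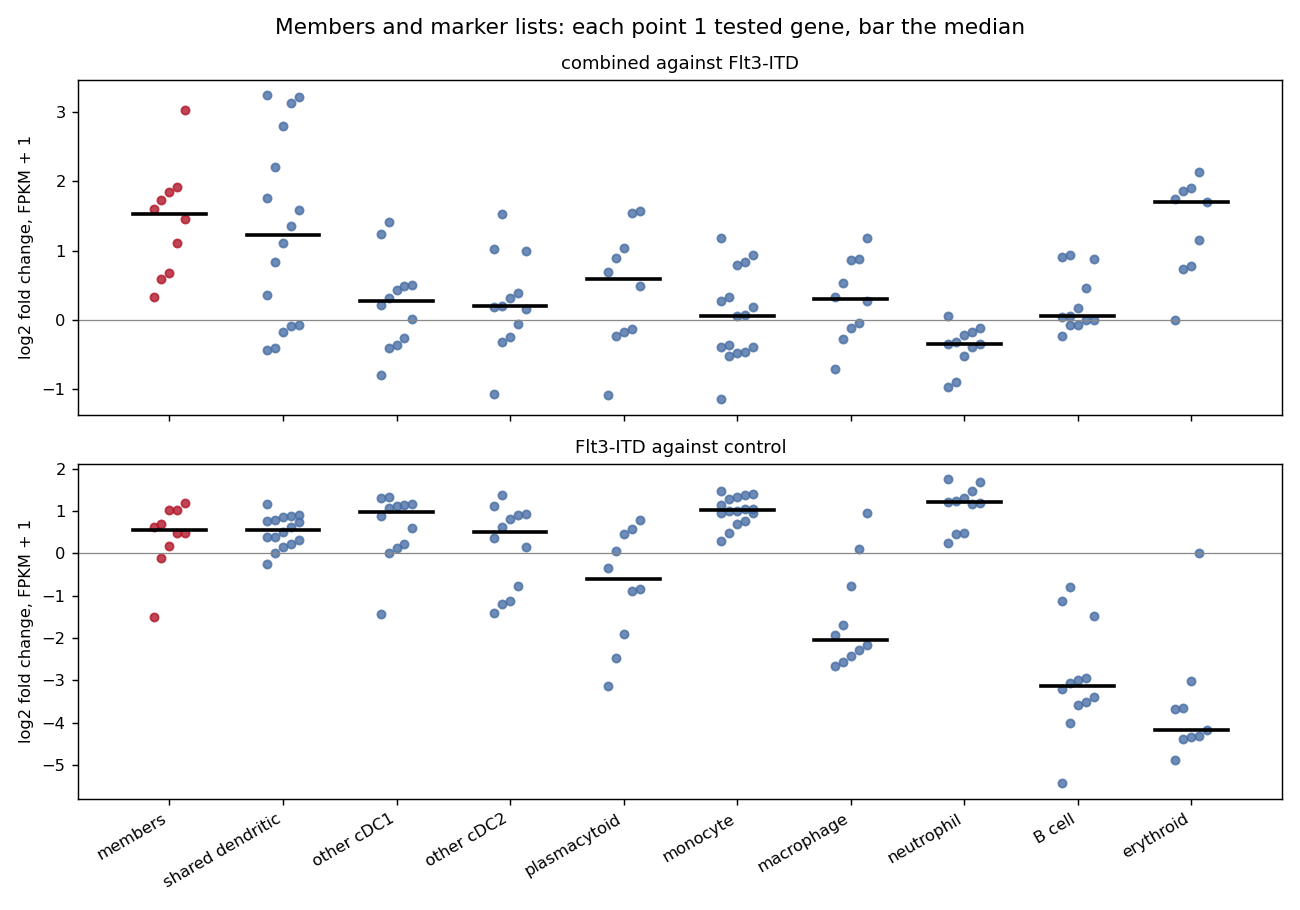
Log2 fold changes of FPKM + 1 for the tested genes of the members and of 9 marker lists, in combined against Flt3-ITD (upper panel) and Flt3-ITD against control (lower panel); each point is a gene and bars are medians. In the upper panel the medians are 1.53 for the members, 1.23 for shared dendritic genes and 0.06 for monocyte genes. They are 0.27 for other cDC1 and 0.20 for other cDC2 genes. In the lower panel the medians are 0.55, 0.57, 1.02, 0.99 and 0.50 in the same order.

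Markers of other cells that the c-Kit fraction could hold were set beside these values. Monocyte genes summed to 7600 and 5146 FPKM in combined, 8365 and 8168 in Flt3-ITD, 3793 and 3875 in Smc3 del/+ and 3533 and 3388 in control libraries. Lyz2 and Ly6c2 made up most of each sum, at 4315 and 2145 FPKM in combined replicate 1. Of 16 tested, 6 rose in combined and 7 in Flt3-ITD against control, none fell, and in combined against Flt3-ITD none passed (median 0.06). Neutrophil genes had medians of 0.83 and 1.21 in the same comparisons with control, with 1 and 3 of 11 rising. Plasmacytoid dendritic genes had a median of 0.21 in combined against control and of -0.59 in Flt3-ITD against control. Of 10 tested, none rose, Dntt fell in both comparisons, and Spib and Ly6d fell in Flt3-ITD. Bst2, Tcf4, Runx2, Tlr7, Tlr9, Irf7 and Il3ra passed in neither. B cell genes fell in the same comparisons, as given below, and which cells the RNA of Dntt, Spib and Ly6d came from was not tested. Siglech, which defines plasmacytoid cells, was at 0.545 and 0.552 FPKM in combined, listed at 0 in both Flt3-ITD libraries, and at 0.518 to 1.03 in the other 4.

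Macrophage genes summed to 61.0 and 71.8 FPKM in combined and 65.1 and 62.6 in Flt3-ITD, against 100.5 to 137 in the other 4 libraries. Of 10 tested, 4 fell in combined and 7 in Flt3-ITD against control, among them C1qb, Axl, Spic and Hmox1 in both, and Emr1 rose in Flt3-ITD. B cell genes summed to 10.6 and 14.5 FPKM in combined, 5.44 and 10.4 in Flt3-ITD, 41.1 and 58.7 in Smc3 del/+ and 232 and 93.1 in control libraries, and 9 of 12 fell in combined and 10 in Flt3-ITD against control. Of 10 T and natural killer cell genes 3 were tested, and Ncr1 fell in both comparisons with control. In Smc3 del/+ against control no gene of any list passed. The part of these cells in the members' values was not tested.

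Profiles like those of the members were sought by the root mean square difference of log2(FPKM + 1) over the 8 libraries, each gene centred on its own mean. For Tlr3, 3 of the 5 nearest of all tested genes were members, Clec9a (0.197), Tlr11 (0.245) and Naaa (0.260), joined by Olfm1 (0.242) and Anpep (0.257), the gene of the aminopeptidase CD13. For Tlr11 they were Naaa (0.182), Tlr3 (0.245), Sept3 (0.309), Clec9a (0.315) and Anpep (0.339). For Cd209a none of the 5 was a member, and they included 4930506M07Rik (0.518), Ifi205 (0.529), LOC100038947 (0.545) and Mnda (0.547). 4930506M07Rik was at 11.3 and 9.88 FPKM in combined, 1.51 and 1.28 in Flt3-ITD, 0.578 and 0.589 in Smc3 del/+ and 0.719 and 0.498 in control libraries. Ifi205 and Mnda belong to a family of close paralogs, which makes their values uncertain. Zbtb46 ranked 10255 of the other tested genes by nearness to Tlr3.

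**Figure D4:**
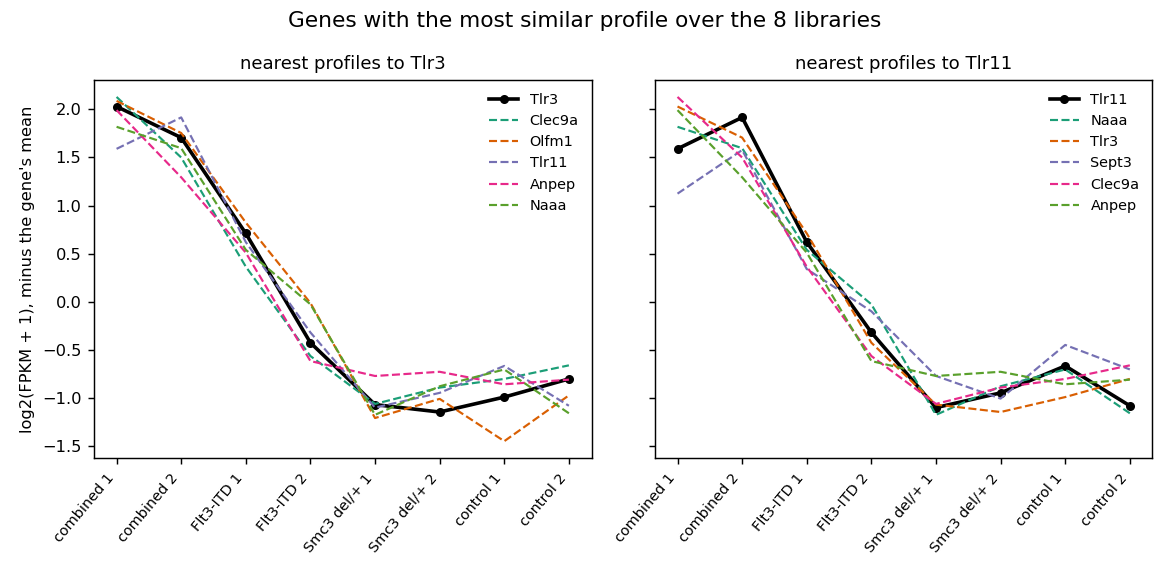
Centred log2(FPKM + 1) over the 8 libraries (horizontal axis, combined to control) for Tlr3 and Tlr11 (black) and the 5 tested genes nearest to each (dashed). Both combined libraries are highest in every profile shown, and the Flt3-ITD libraries lie between them and the other 4.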

How the data were processed

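The authors deposited FPKM values in 2 tables of 23385 rows (92 spike-in RNAs and 23293 mouse genes) with 1 column for each of the 8 libraries. Per the labels' protocols, Trizol served for RNA isolation and a directional kit for the libraries. Per the submitters' processing notes, the mm9 build, Cufflinks 2.0.0 and TopHat were used; the sources used here do not give the annotation or whether strand was used. All values printed come from the first table unless named otherwise. The second, in which the deposited FPKM values were rescaled further by the authors, served as an alternative.

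FPKM hold no counts and the depth in reads is unknown. From the steps between low values, depths relative to control replicate 1 were put at 0.712 to 1.01, with 12 of 216 low genes sharing the ratio in combined replicate 2, so the estimate is uncertain.

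limma 3.58.1 (R 4.3.3) was fitted to log2(FPKM + 1) (variance trend, 4 group means, 4 residual degrees of freedom; an additive model with 5 for the averaged effect). The 10854 genes whose mean reached 1 FPKM entered, with Benjamini-Hochberg adjustment over all of them and a threshold of 0.05. The code was tested on simulated data. With 2 libraries against 2, an exact permutation test cannot go below p = 0.333. P-values weigh each difference against the spread between mice within groups, pooled over all groups in the fit and moderated across genes. The wider spread between the combined replicates thus enters the error of every comparison of the 4 group means. Errors of comparisons with combined may be too small, and those of the others too large. In the additive model the spread also takes in any interaction. Members, lists, designs and alternatives were chosen with earlier results of these data known. The text was to name all members, of each list up to 4 tested genes with the smallest p in Flt3-ITD against control and those called elsewhere. Not all of these are printed, and further list genes are examples chosen after their values were seen. Profiles are given for the 3 members with the largest SD, and 1 near gene is not reported here. All genes of the lists were found, Spi1 and Adgre1 under older symbols. Replicate differences correlated between groups from -0.113 to 0.0229 over genes, so replicate numbers were not taken as pairs.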

Additional observations from a re-analysis of the deposited data

How the results depend on the processing

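The table the authors normalized shifts all genes: its median log2 fold change was -0.67 for combined against control, -0.58 for Flt3-ITD against control, -0.44 for the averaged effect, -0.38 in Smc3 del/+ against control, -0.10 for combined against Flt3-ITD and 0.27 for the interaction. Called genes there were 124 higher and 5857 lower (5981) for combined against control, 106 higher and 4768 lower (4874) for Flt3-ITD against control, 5053 for the averaged effect, 12 in Smc3 del/+ against control and 19 for the interaction. Cd209a and Wdfy4 turned to -0.12 and -0.088 in Flt3-ITD against control, above that table's median. Members called there were 1 in Flt3-ITD against control; in combined against control Zbtb46 was lower (-1.37) and Xcr1 higher (1.26), and the call of Cst3 was lost (0.70, adjusted p = 0.0619), as was that of Wdfy4 for the averaged effect (0.27, adjusted p = 0.398). Without the filter the averaged calls of Clec9a and Wdfy4 were lost (adjusted p = 0.0559 and 0.0848).

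With only the groups compared, members called were 4 in Flt3-ITD against control and 2 in combined against control, while over all genes 3603 and 41 were called in these comparisons, 2 in combined against Flt3-ITD and 22 in Smc3 del/+ against control. With a pseudocount of 0.1, called genes were 5 for combined against Flt3-ITD and 3 for Smc3 del/+ against control. Without the filter they were 9 and 3, with 2 for the interaction. With the replicate number as a block, 3 genes were called in combined against Flt3-ITD and 1012 in combined against control, and no count of members called changed. Crossed pairs for combined against control, tried after seeing the data, also gave 7 members.

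Leaving out 1 library, where the lone library left is taken to vary like the other groups, gave 0 to 5 members in Flt3-ITD against control, 1 to 9 in combined against control, 0 to 6 in combined against Flt3-ITD, 5 to 8 for the averaged effect, 0 to 5 for the interaction and 0 in Smc3 del/+ against control. All genes called ranged from 243 to 4235, 83 to 3427, 3 to 3248, 1208 to 4703, 4 to 2036 and 1 to 12 in the same order. Signs turned for Cd209a in Flt3-ITD against control (-0.16 to 0.53) and for Wdfy4 in combined against Flt3-ITD (-0.20 to 0.87) and the interaction (-0.054 to 1.01). In Smc3 del/+ against control they turned for Naaa (-0.32 to 0.13), Tlr11 (-0.36 to 0.058), Cd209a (-0.42 to 0.27), Zbtb46 (-0.29 to 0.062) and Cst3 (-0.23 to 0.0086). Of 350 member values under the other settings, 332 kept direction and side of the threshold, as did 400 of 480 with 1 library left out. The cause of the changes was not tested. Many of these values could not change direction. The fold change stays the same without the filter, with only the groups compared or with the block. It also stays the same when the library left out belongs to a group outside the comparison. These tallies are therefore not a measure of stability. Depth in reads is unknown, so values near 0 carry no counting interval.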

Other observations

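Between combined and Flt3-ITD libraries 31 genes passed, 26 of them higher, against 3 with the replicate number as a block and 5 with a pseudocount of 0.1. Xist was among the 31. Ifi205 is named because of its values here. It was at 169 and 158 FPKM in combined, 30.1 and 25.4 in Flt3-ITD, 13.1 and 18.7 in Smc3 del/+ and 18.8 and 20.5 in control libraries. Close paralogs of Ifi205 make these values uncertain.

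The combined replicates stood in opposite order for the members and the erythroid markers. The 10 members summed to 403 FPKM in replicate 1 and 244 in replicate 2, while the erythroid markers summed to 153 and 510 FPKM. Without Cst3 the members summed to 147 and 87.9 FPKM.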
